A study of Danio rerio with 31 samples.

Results

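The brains of 8 adult female zebrafish of the F2 generation were compared, 4 females of the treated line (fish 6, 10, 24 and 28) and 4 females of the control line (fish 11, 21, 31 and 39). They are 8 of the 24 fish of the series and were chosen by the labels for generation and sex alone. Fish of the treated line descend from F0 fish that received polychlorinated biphenyls (PCBs) mixed with polybrominated diphenyl ethers (PBDEs), and the F2 fish themselves had no exposure. Fish of the control line descend from F0 fish without that exposure. All fish are of the TU line, a laboratory strain, and the whole brain was sequenced. The other 16 fish are 12 F0 males (6 exposed and 6 control) and 4 F2 males (2 of the treated line and 2 of the control line). No family, clutch or tank of a fish was used here, so such differences between the lines cannot be told apart from the descent. The comparison asks whether brain transcripts of unexposed descendants differ between the lines.

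PCBs were used as insulating oils and PBDEs as flame retardants, and body fat stores both for long times. Dioxin-like PCBs bind the aryl hydrocarbon receptor, which pairs with its partner ARNT and switches on CYP1 genes. Other members of both classes are known to disturb thyroid hormone, dopamine and calcium signalling in vertebrates. Effects on unexposed descendants are usually discussed through DNA methylation, histone marks and small RNAs, or through selection among families.

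The libraries held 15.2 to 22.8 M gene reads per treated-line female and 18.1 to 30.1 M per control-line female. Defining brain markers were present in all 8 females: the neuronal SNAP25 ID ENSDARG00000020609 ranged from 1969 to 2321 normalised read counts (CPM) in the treated line and 2204 to 2288 CPM in the control line, and the myelin gene mbpa from 9458 to 13642 and 7547 to 12065 CPM. Treated-line fish 6 and 24 and control-line fish 21 stood apart. After thinning all libraries to 12.2 M reads, 15663, 19340, 16007 and 19865 genes were detected in treated-line fish 6, 10, 24 and 28, against 18188, 16414, 20247 and 20556 in control-line fish 11, 21, 31 and 39. Fish 6 lacked any read for 309 genes that had at least 1 CPM in all 7 other females, fish 24 for 205 and fish 21 for 159, against 0 to 17 in the other females. The share of uniquely aligned reads that lay outside genes, called the off-gene share below, was 20.5, 19.7, 20.8 and 18.7% in the treated line, against 22.9, 22.6, 23.5 and 21.6% in the control line. The lines did not overlap in this share, and the exact two-sided permutation p of 0.0286 is the smallest that 4 against 4 fish can give. Adjusted over the 7 library measures compared it was 0.2, and no other measure had a lower adjusted p. All values per fish below follow this order of fish.

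**Figure D1:**
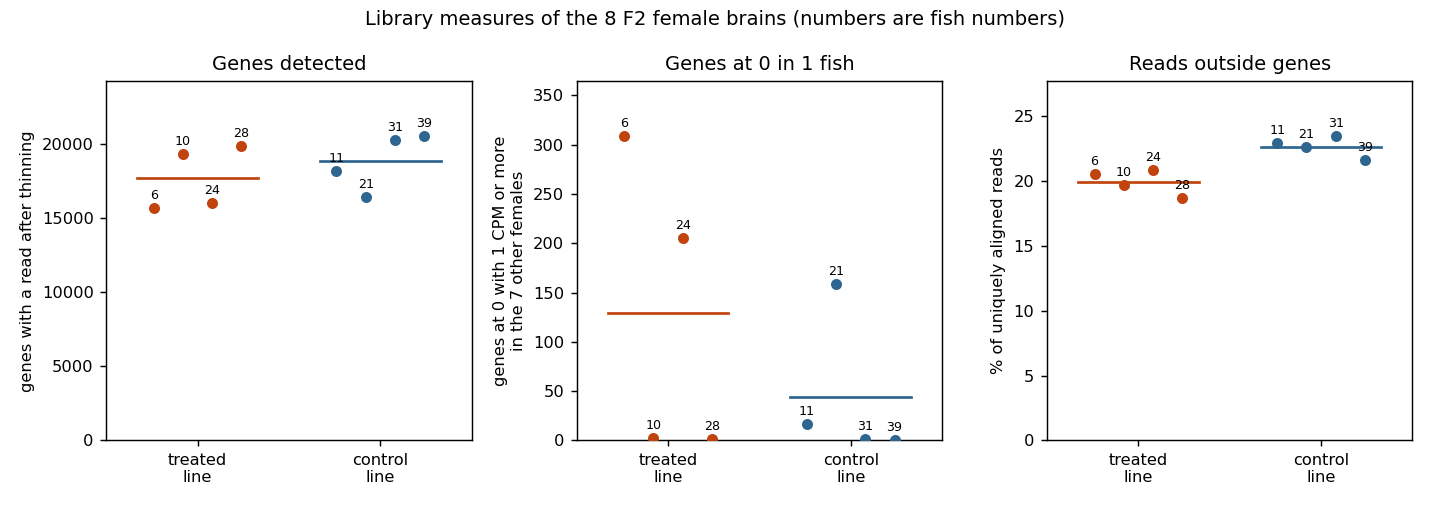
Each point is a female brain with its fish number, treated line left and control line right, and the line marks the mean. The panels show genes detected after thinning, genes at 0 in 1 fish only, and the percentage of uniquely aligned reads outside genes. Fish 6, 24 and 21 had the fewest genes detected, and the percentage outside genes was below 21 in all treated-line fish and above 21.5 in all control-line fish.

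No gene passed an adjusted p of 0.05 between the lines in the brains of F2 females (0 of 17261 tested, 0%, edgeR quasi-likelihood test with Benjamini-Hochberg adjustment). The lowest adjusted p was 0.679. At an unadjusted p under 0.05 lay 906 genes (5.25%), 388 higher (2.25%) and 518 lower (3%) in the treated line. The lines did not overlap for 253 genes with all treated-line fish higher (1.47%) and for 451 genes with all treated-line fish lower (2.61%), together 4.08% of the tested genes, counts that became 296 and 409 under median-ratio scaling. DESeq2 called 22 of 20010 genes with an adjusted p (0.11%), 11 higher and 11 lower. The median log2 change over all tested genes was -0.01 and the median standard error (SE) was 0.379. For 7543 genes (43.7%) the 95% interval of the log2 change lay within 1 in either direction, and among the 9474 genes of at least 10 CPM in the higher line this held for 77.1%. For these genes a change of more than 2-fold lies outside the interval, and for the rest the interval leaves such a change possible. In bulk tissue, fewer cells of a type and less RNA per cell cannot be told apart.

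The genes of lowest unadjusted p are given next, and none of them was called by edgeR, although DESeq2 called all 10. A pair of genes of RNA handling were higher in every treated-line female. SF3A1 (ENSDARG00000041887), a subunit of the U2 splicing particle, had 204, 191, 178 and 188 CPM in the treated line, against 129.9, 125, 142 and 136 CPM in the control line (log2 change 0.51, SE 0.118, unadjusted p = 0.000726, adjusted p = 0.789). NUP205 (ENSDARG00000042530), a scaffold protein of the nuclear pore, had 74.9, 62.4, 61.8 and 60.7 CPM in the treated line, against 40.6, 43.4, 37.4 and 44.2 CPM in the control line (log2 change 0.65, SE 0.15, adjusted p = 0.789). The lines did not overlap for either gene, and the change kept to 0.48 to 0.55 for SF3A1 and 0.57 to 0.68 for NUP205 when any female was left out.

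The immediate early gene fosaa (ENSDARG00000040135), a Fos family transcription factor that neurons switch on within minutes of activity, had 3.67, 13.3, 2.76 and 12.4 CPM in the treated line, against 0.914, 1.4, 1.19 and 0.694 CPM in the control line. All treated-line fish lay above all control-line fish, and fish 10 and 28 were far higher than fish 6 and 24, which had the fewest genes detected in that line. The log2 change was 2.93 (SE 0.66, unadjusted p = 0.00062, adjusted p = 0.789). With fish 6, 24 and 21 left out it was 3.79 and passed (adjusted p = 0.0284). That fit was chosen after seeing the data and leaves only fish 10 and 28, the highest for fosaa, in the treated line. With the off-gene share as a covariate the log2 change of fosaa was 1.23 (SE 1.56).

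ENSDARG00000115978, an ID without a symbol, had 16, 3.13, 13.4 and 8.34 CPM in the treated line, against 1.86, 0.814, 0.927 and 1.02 CPM in the control line (log2 change 3.13, SE 0.585, unadjusted p = 0.00012, adjusted p = 0.679). The clone-named gene si:dkey-121b10.8 (ENSDARG00000096541) had 0.887, 4.22, 8.45 and 7 CPM in the treated line and no read in any control-line female. Against a floor of 3 reads over the control line, its mean was at least 164-fold higher in the treated line (unadjusted p = 6.15e-05, adjusted p = 0.679).

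Among the lower genes, the class II histocompatibility gene mhc2dhb (ENSDARG00000116524) had no read in any treated-line female and 5.48, 5.58, 1.01 and 4.31 CPM in the control line. Its mean was at least 103-fold lower in the treated line against a floor of 3 reads over that line (adjusted p = 0.679). The long noncoding RNA oip5-as1 (ENSDARG00000093456) had 60.5, 65.7, 64.2 and 75.7 CPM in the treated line, against 125, 116, 118 and 91.2 CPM in the control line (log2 change -0.76, SE 0.146, unadjusted p = 0.000157, adjusted p = 0.679). Neither gene overlapped between the lines. LIN7A (ENSDARG00000013414), a scaffold protein of cell junctions and synapses, had 35.5, 30.3, 43.4 and 59.3 CPM in the treated line, against 88.4, 86.3, 80.6 and 72.6 CPM in the control line (log2 change -0.96, SE 0.199, adjusted p = 0.789).

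The ciliary gene rpgrb (ENSDARG00000057074), a paralog of RPGR, had 2.54, 2.18, 0.921 and 3.27 CPM in the treated line, against 15.08, 11.5, 9.62 and 7.74 CPM in the control line (log2 change -2.30, SE 0.47, adjusted p = 0.789). It passed when all 24 fish shared the estimate of the spread (adjusted p = 0.0101). The clone-named si:ch1073-235m4.3 had 20.6, 28.8, 32.2 and 19.3 CPM in the treated line, against 73.8, 63.2, 58.7 and 34 CPM in the control line (log2 change -1.19, SE 0.251, adjusted p = 0.789). With the off-gene share as a covariate its log2 change was -0.29, while those of oip5-as1, LIN7A and rpgrb were -0.74, -1.28 and -2.98.

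**Figure D2:**
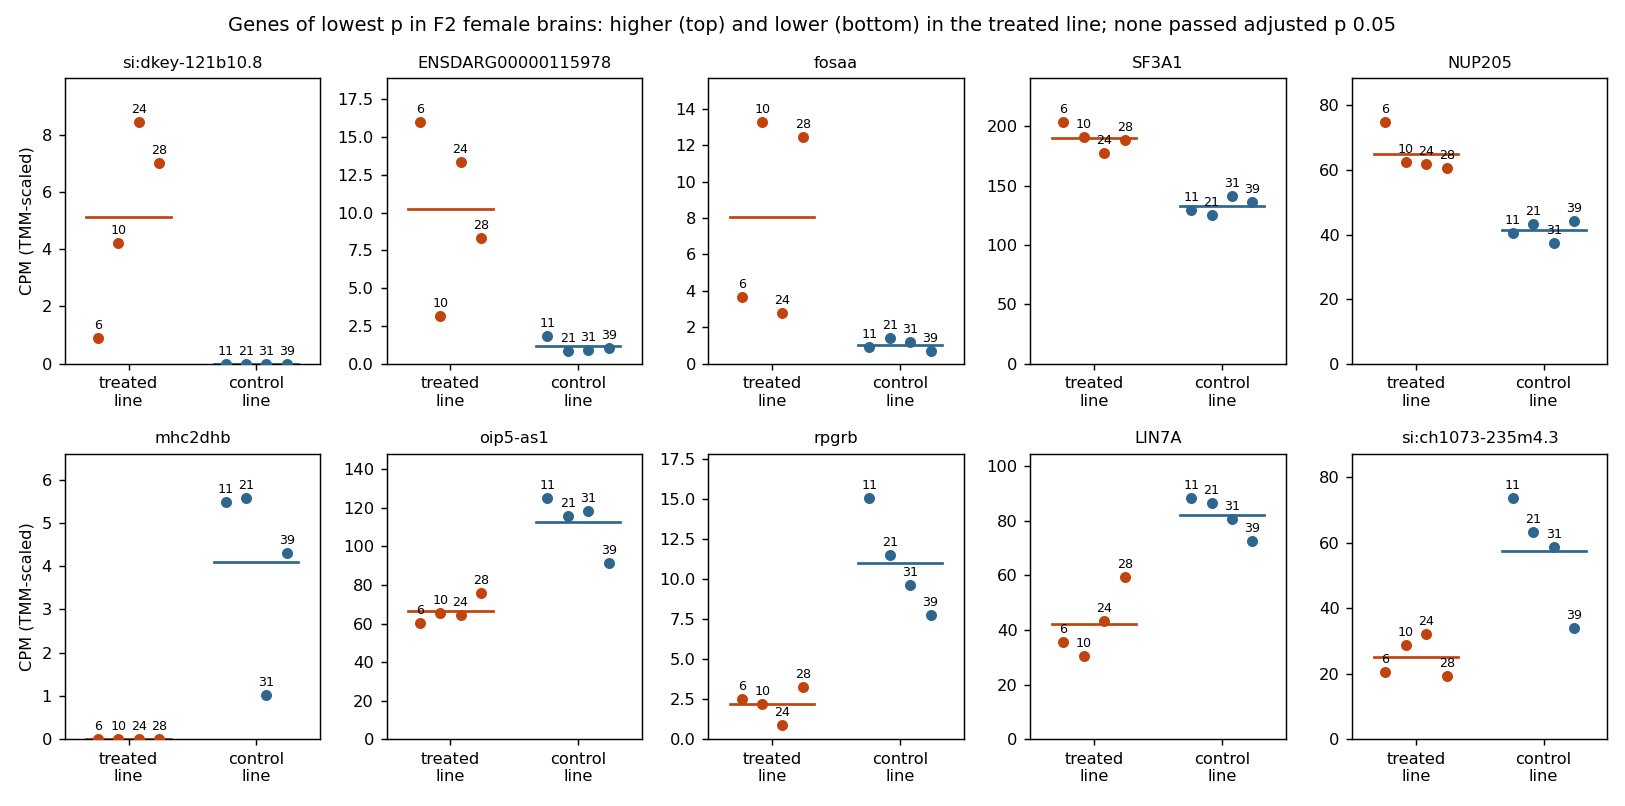
CPM of each female (points with fish numbers, line at the mean) for the 5 genes of lowest p that were higher in the treated line (top) and the 5 that were lower (bottom), treated line left and control line right in each panel. No panel shows an overlap between the lines, and none of the genes had an adjusted p below 0.679 in edgeR.

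Genes without a read in a whole line were few. With at least 1 CPM on average in the other line, 8 genes had no read in any treated-line female and 1 gene, si:dkey-121b10.8, had none in any control-line female. The 8 were mhc2dhb, CASKIN2, SLC34A1, CLDN5, the chemokine gene ccl38a.4, zgc:173577, si:ch73-196i15.3 and ENSDARG00000099006, listed after their values were seen. Besides mhc2dhb and ccl38a.4, the highest value of a control-line female was 3.61 CPM, for SLC34A1, a phosphate transporter by its name. Fish 6 and 24 of the treated line also had the most genes at 0 of all females, and the part of this in the absences was not tested. In males, CASKIN2 had 1.09 and 0.477 CPM in treated-line F2 males, against 2.01 and 0.93 CPM in control-line F2 males. For mhc2dhb the values were 1.17 and 0 CPM in treated-line F2 males and 0.814 and 0 CPM in control-line F2 males, and 11 of 12 F0 males had reads. For si:dkey-121b10.8 they were 0 and 4.63 CPM in treated-line F2 males and 0 in both control-line F2 males, and 11 of 12 F0 males had reads.

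Members of 22 pathway lists were followed as groups. They hold 807 tested genes, of which 27 were higher (3.35%) and 28 lower (3.47%) in the treated line at an unadjusted p under 0.05, close to the 2.25% and 3% of all genes. No member passed the adjusted threshold in edgeR. The median log2 change of these 807 genes was -0.02, and the 95% interval lay within 1 in either direction for 61.0%. Genes named from the lists are the members of lowest unadjusted p, up to 3 a list, and were chosen after their values were seen.

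Glutamate genes, which serve fast excitation, split in both directions, with a median log2 change of 0.04. Of 51 tested, 3 were higher (5.88%) and 4 lower (7.84%) at an unadjusted p under 0.05, against 2.25% and 3% of all genes. The AMPA receptor subunit gene GRIA3 (ENSDARG00000037498, 1 of 2 IDs with this symbol) had 60.2, 61.5, 69.7 and 58.5 CPM in the treated line, against 114, 106, 112 and 71.6 CPM in the control line (log2 change -0.69, SE 0.165, 95% interval -1.05 to -0.33, adjusted p = 0.789). No fish overlapped, and control-line fish 39 lay nearest to the treated line. The kainate receptor subunit gene GRIK2 had 71.4 to 83.5 CPM in the treated line and 90.4 to 104 CPM in the control line (log2 change -0.35), and GRM7, a presynaptic metabotropic receptor gene, had 51.5 to 59.7 and 19.4 to 49.8 CPM (log2 change 0.69). With the off-gene share as a covariate GRIA3 had a log2 change of -0.15 (SE 0.321) and GRM7 of 0.35.

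GABA and glycine genes, which serve inhibition, showed 2 higher and 2 lower of 35, with a median log2 change of 0.04. Each direction held 5.71%, against 2.25% and 3% of all genes. GAD2, which makes GABA from glutamate, had 243, 254, 344 and 256 CPM in the treated line, against 407, 401, 383 and 305 CPM in the control line (log2 change -0.45, SE 0.149, adjusted p = 0.82). Treated-line fish 24 lay above control-line fish 39, so the lines overlapped. The GABA transporter gene SLC6A11 lay on the other side, with 19.96 to 54.5 CPM in the treated line and 8.55 to 27.6 CPM in the control line (log2 change 1.15). With the off-gene share as a covariate GAD2 had a log2 change of -0.02 and SLC6A11 of 0.51.

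Of 36 dopamine, noradrenaline and serotonin genes, 4 were higher (11.1%, against 2.25% of all genes) and 2 lower (5.56%, against 3%). The dopamine transporter gene SLC6A3, which marks dopamine neurons, had 9.39, 12.1, 9.37 and 10.4 CPM in the treated line, against 4.53, 4.07, 5.29 and 4.38 CPM in the control line (log2 change 1.17, SE 0.344, adjusted p = 0.789). The lines lay far apart and each was narrow, and the log2 change was 1.09 to 1.25 when any female was left out and 1.16 with the covariate. TPH2, the first enzyme of serotonin synthesis, had 12.3 to 29.8 CPM in the treated line and 4.46 to 16.4 CPM in the control line (log2 change 1.02). The monoamine oxidase gene mao, which breaks these transmitters down, had 28.7, 33.6, 47.3 and 34 CPM in the treated line, against 50.7, 48.7, 56 and 47.7 CPM in the control line (log2 change -0.50, SE 0.184). The acetylcholine synthesis gene CHAT had 11.7, 12.7, 8.61 and 16.5 CPM in the treated line, against 31.5, 35.1, 17.3 and 20.3 CPM in the control line (log2 change -1.07, SE 0.294, adjusted p = 0.789). For mao and CHAT the lines came close at single fish without overlapping. With the covariate TPH2 took the other sign (-0.36, SE 0.604), mao had -0.18 and CHAT -1.78. Without fish 6, 24 and 21 CHAT had -0.64.

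Synaptic vesicle genes had 1 higher and 4 lower of 48 (8.33% lower, against 3% of all genes, median log2 change -0.03). The vesicle protein gene sypb, a synaptophysin, had 1121, 1292, 1219 and 1046 CPM in the treated line, against 1357, 1638, 1437 and 1433 CPM in the control line (log2 change -0.33, SE 0.125). BSN (1 of 2 IDs), which organises the release site, had 87.1 to 126 CPM in the treated line and 116 to 178 CPM in the control line (log2 change -0.42). DNM1 (1 of 2 IDs), the dynamin that cuts vesicles off the membrane, lay on the other side with 41.7 to 57.9 and 21.7 to 40.1 CPM (log2 change 0.66). With the covariate BSN took the other sign (0.14, SE 0.291), DNM1 had 0.37 and the list's median was 0.10. Without fish 6, 24 and 21 BSN had -0.65 and the median was -0.15.

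Among 44 neuropeptide and hypothalamic hormone genes, 2 were higher (4.55%, against 2.25% of all genes) and 1 lower (2.27%, against 3%). The median log2 change was -0.15. The gonadotropin-releasing hormone gene gnrh3 (ENSDARG00000056214) had 19.99, 27.3, 15 and 21.4 CPM in the treated line, against 7.31, 9.88, 6.49 and 12 CPM in the control line (log2 change 1.23, SE 0.297, 95% interval 0.59 to 1.87, unadjusted p = 0.00108, adjusted p = 0.789). All treated-line females lay above all control-line females, the change was 1.07 to 1.41 when any female was left out, and it was 0.35 with the off-gene share as a covariate. The neuromedin U gene NMU lay the other way, with 3.15 to 6.95 CPM in the treated line and 8.33 to 18.6 CPM in the control line (log2 change -1.34, SE 0.413). The neuropeptide FF-like gene npffl had 4.71 to 18.2 CPM in the treated line and 1.05 to 6.98 CPM in the control line (log2 change 1.52). Its change took the other sign with the covariate (-1.46, SE 1.03) and was 2.48 without fish 6, 24 and 21. NMU had -0.87 with the covariate, and the list's median was 0.08.

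Thyroid, sex steroid and stress hormone genes had few members at a low p. The thyroid receptor gene THRB had 67.2, 37.1, 40.8 and 38.2 CPM in the treated line, against 67.6, 63.9, 104 and 71 CPM in the control line (log2 change -0.74, SE 0.223, adjusted p = 0.789). Treated-line fish 6 alone reached the control line, and the change was -0.99 to -0.56 when any female was left out and -0.09 with the covariate. It was the single gene of 11 tested in the thyroid list with an unadjusted p under 0.05 (9.09%, against 3% of all genes lower). Of 15 estrogen and androgen genes, HSD17B12 alone did so (6.67%, against 3%). It had 91.4, 94.9, 105 and 98.2 CPM in the treated line, against 139, 173, 114 and 118 CPM in the control line (log2 change -0.48, SE 0.15). HSD17B12 acts in fatty acid elongation and is also listed for estradiol synthesis. None of 23 stress axis genes did so, and their log2 changes ranged from -0.75 to 1.34.

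The aryl hydrocarbon receptor list holds the receptor that dioxin-like PCBs bind, its partners, CYP1 genes and related genes. The F2 fish had no exposure themselves. Of 10 tested members 1 had an unadjusted p under 0.05 (higher, 10%, against 2.25% of all genes). The receptor partner gene arnt (ENSDARG00000021855) had 9.92, 3.75, 6.07 and 5.72 CPM in the treated line, against 1.37, 1.45, 0.75 and 0.877 CPM in the control line (log2 change 2.51, SE 0.619, unadjusted p = 0.00128, adjusted p = 0.789). The lines did not overlap, the change was 2.21 to 2.69 when any female was left out, and DESeq2 called the gene (adjusted p = 0.00494). The target gene CYP1A1 had no read in any control-line female and 0.341 CPM in treated-line fish 10 alone. The list's median log2 change was 0.07, with 6 members above 0 and 4 below. ARNT2 had a log2 change of 0.26, tiparp 0.15, CYP1B1 0.08 and ahr2 -0.41. None of 20 xenobiotic metabolism genes and none of 29 oxidative stress genes had an unadjusted p under 0.05.

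Immediate early genes leaned higher by count: 24 of 33 had a log2 change above 0 (median 0.24), against 48.4% of all genes. At an unadjusted p under 0.05, 3 were higher (9.09%, against 2.25% of all genes) and none lower. Besides fosaa these were FOSB, with 8.17 to 23.5 CPM in the treated line and 5.25 to 8.77 CPM in the control line (log2 change 0.88), and DUSP1, a phosphatase that damps kinase signals, with 13.8 to 34.4 and 14.3 to 18.4 CPM (log2 change 0.67). Summed over the list, levels were 2994, 3003, 2717 and 2066 CPM in the treated line, against 2696, 2972, 1996 and 1511 CPM in the control line. The lines thus overlapped in the sum. The list's spread was wide. Over its 29 members of at least 10 CPM the median within-line standard deviation (SD) was 0.468 on the log2 scale, against 0.308 over all such genes. The list's median was 0.51 with the covariate, and without fish 6, 24 and 21 FOSB had a log2 change of 0.50.

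Circadian clock genes had 3 higher (6.98%, against 2.25% of all genes) and 2 lower (4.65%, against 3%) of 43, with a median log2 change of -0.02. The D-box factors lay on opposite sides: tefa had 56.6, 65.9, 118 and 115 CPM in the treated line, against 118, 159, 176 and 140.1 CPM in the control line (log2 change -0.74, SE 0.233), while its relative dbpa had 62.8 to 174 CPM in the treated line and 58.9 to 86.3 CPM in the control line (log2 change 0.70). The clock repressor paralog ciartb had 21.5, 24.4, 24.2 and 29.1 CPM in the treated line, against 14.6, 16.3, 15 and 18.6 CPM in the control line (log2 change 0.62). None of the 3 genes was called, and with the covariate ciartb had 0.17 and dbpa 0.41.

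Respiratory chain genes had 4 of 86 higher (4.65%, against 2.25% of all genes) and none lower. Above 0 lay 62 of 86, against 48.4% of all genes, with a median log2 change of 0.09. The summed levels overlapped, at 19215 to 24915 CPM in the treated line and 19578 to 22924 CPM in the control line. The ATP synthase subunit gene ATP5F1B had 1690, 1946, 1987 and 1701 CPM in the treated line, against 1571, 1559, 1293 and 1464 CPM in the control line (log2 change 0.32, SE 0.125), and ATP5F1A had 914 to 1059 and 718 to 835 CPM (log2 change 0.29). The complex I gene NDUFB11 had 29.2 to 43.5 CPM in the treated line and 21.6 to 26.5 CPM in the control line (log2 change 0.62). With the covariate ATP5F1A had 0.09, and without fish 6, 24 and 21 the list's median was 0.17. Ribosomal protein genes lay on the other side by a small amount: 69 of 77 were below 0, the median was -0.09, the range was -0.24 to 0.23 and none had an unadjusted p under 0.05. Summed over this list, levels were 37063, 60489, 64160 and 59909 CPM in the treated line, against 66274, 55150, 59160 and 54081 CPM in the control line. Fish 6 alone lay below the control line, and the other treated-line fish lay within its range. The median of the ribosomal list was 0.02 without fish 6, 24 and 21.

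Fatty acid oxidation genes had 1 higher (2.7%, against 2.25% of all genes) and 3 lower (8.11%, against 3%) of 37. HADHB, a subunit of the mitochondrial trifunctional enzyme, had 102, 95.9, 74.5 and 104 CPM in the treated line, against 133, 125, 123 and 129 CPM in the control line (log2 change -0.44, SE 0.137). UCP1, the uncoupling protein gene by its symbol, had 60.1 to 74.4 CPM in the treated line and 76.5 to 104 CPM in the control line (log2 change -0.53). DECR1, which handles unsaturated fats, had 13.4 to 23.9 CPM in the treated line and 5.23 to 14.3 CPM in the control line (log2 change 0.95). With the covariate HADHB had -0.69 and UCP1 -0.32, and without fish 6, 24 and 21 DECR1 had 0.45. None of 28 cholesterol synthesis genes had an unadjusted p under 0.05.

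DNA methylation and histone modifier genes had 3 higher (4.17%, against 2.25% of all genes) and 2 lower (2.78%, against 3%) of 72. Their median log2 change was -0.0017. DNMT1, which copies methylation to new strands, had 67.9, 64, 55 and 57.4 CPM in the treated line, against 43.4, 32.6, 42.9 and 52.8 CPM in the control line (log2 change 0.51, SE 0.174, adjusted p = 0.823). TET2, which oxidises methylated cytosine, had 15.4, 18.9, 14.2 and 14 CPM in the treated line, against 22.6, 32.9, 23.1 and 23.7 CPM in the control line (log2 change -0.71, SE 0.229, adjusted p = 0.789). EED, a subunit of the Polycomb methyltransferase complex, had 41.4, 83.8, 45.3 and 96.5 CPM in the treated line, against 30.8, 38.3, 37.2 and 35.9 CPM in the control line (log2 change 0.91, SE 0.254). Treated-line and control-line fish did not overlap for these 3 genes, and as for fosaa the treated-line fish 10 and 28 were highest for EED. EED passed without fish 6, 24 and 21 (log2 change 1.39, adjusted p = 0.0384). That fit was chosen after seeing the data and leaves only fish 10 and 28, the highest for EED, in the treated line. The pass thus rests on removing the lowest treated-line fish. With the off-gene share as a covariate the log2 change of EED was -0.15 (SE 0.468). Heat shock and endoplasmic reticulum genes had none higher and 3 lower of 47 (6.38%, against 3% of all genes). Among them the chaperone gene CALR had 57.8 to 81.2 CPM in the treated line and 76.3 to 109.8 CPM in the control line (log2 change -0.51 and -0.19 with the covariate).

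Interferon response and antigen presentation genes lay lower as a list without single genes that passed. Of 24 tested, 20 had a log2 change below 0, the median was -0.70 against -0.01 for all genes, and 2 (8.33%) had an unadjusted p under 0.05, against 3% of all genes. The class I gene mhc1zba had 51.3, 63.7, 40.1 and 64.2 CPM in the treated line, against 78, 89.4, 69.8 and 73.8 CPM in the control line (log2 change -0.50, SE 0.175, adjusted p = 0.824), and the lines did not overlap. The class I gene mhc1uba had 4.43, 82.9, 66.2 and 172 CPM in the treated line, against 180.3, 163, 192 and 218 CPM in the control line. The list's median was -0.62 without fish 6, 24 and 21 and -1.88 with the covariate. For mhc1zba the log2 change was -0.19 without those fish and -1.03 with the covariate. Summed over the list, levels were 272, 505, 353 and 667 CPM in the treated line, against 553, 761, 667 and 897 CPM in the control line. Microglia and macrophage markers summed to 1361, 2030, 1443 and 1587 CPM in the treated line, against 1944, 2113, 1506 and 1991 CPM in the control line (37 of 45 IDs tested, none with an unadjusted p under 0.05), and their part in the lower interferon list was not tested.

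**Figure D3:**
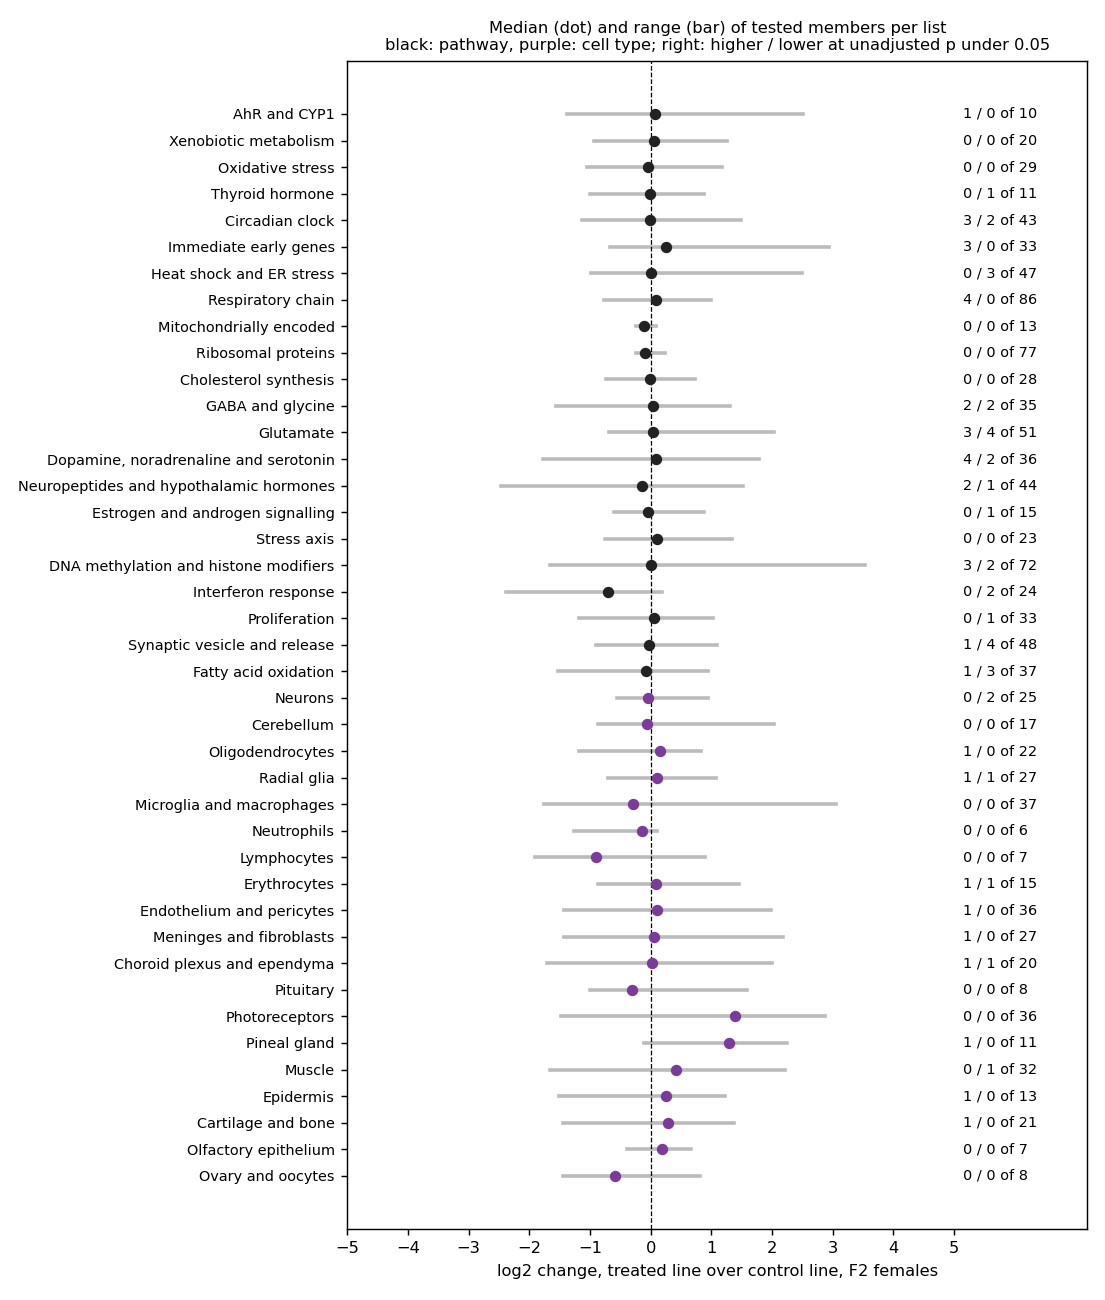
Median (dot) and range (grey bar) of the log2 change, treated line over control line, over the tested members of each list, with pathway lists in black and cell type lists in purple. The numbers at the right give how many members were higher and lower at an unadjusted p under 0.05, of how many tested. The medians of most lists lie near 0, with photoreceptors (1.39) and pineal gland (1.29) at the high end and lymphocytes (-0.91) and interferon response (-0.70) at the low end. The lymphocyte median rests on 7 tested genes, 1 of them of at least 10 CPM. It was 0.01 with the off-gene share as a covariate and 0.24 without fish 6, 24 and 21.

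The summed markers of neurons, radial glia and oligodendrocytes overlapped between the lines. Neuron markers summed to 11810 to 12329.5 CPM in the treated line and 11785 to 13459.9 CPM in the control line. Of 25 tested, 2 had an unadjusted p under 0.05, both lower (8%, against 3% of all genes). The neuronal stathmin gene STMN4 (1 of 2 IDs) was 1 of these, with 259.6, 245, 286 and 241 CPM in the treated line, against 451, 374, 367 and 317 CPM in the control line (log2 change -0.55, SE 0.135, adjusted p = 0.789), and the lines did not overlap. Radial glia markers summed to 8731 to 9406 CPM in the treated line and 7419.7 to 9199 CPM in the control line, and oligodendrocyte markers to 14039 to 19827 and 11725 to 17103 CPM. In radial glia, which give rise to neurons in adult fish, the Notch target her4.1 had 24.7 to 50.3 CPM in the treated line and 43.1 to 78.9 CPM in the control line (log2 change -0.71), and SOX9 (1 of 2 IDs) had 12.2 to 27.6 and 9.36 to 18.9 CPM (log2 change 0.69). With the covariate SOX9 took the other sign (-0.14, SE 0.598), her4.1 had -0.33 and STMN4 -0.20. The extracellular collagen gene COL12A1 (1 of 2 IDs) had 2.78, 44.7, 50.6 and 27.25 CPM in the treated line, against 5.45, 10.2, 6.18 and 5.7 CPM in the control line (log2 change 2.19, SE 0.676, adjusted p = 0.789). Fish 6 lay below every control-line fish and the other 3 treated-line fish above every one, and without fish 6 the gene passed (log2 change 2.57, adjusted p = 0.017). That pass rests on removing the only treated-line fish on the other side. With the covariate the log2 change of COL12A1 was 2.26 (SE 1.42), and in F2 males it was -1.10 (SE 1.14).

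Markers of tissues next to the brain differed between single fish. Photoreceptor markers summed to 534, 452, 1412 and 2409 CPM in the treated line, against 472, 457, 539 and 1101 CPM in the control line, and pineal markers to 62.4, 44.3, 188 and 397 CPM, against 45.8, 56, 58.3 and 162 CPM. Treated-line fish 24 and 28 and control-line fish 39 carried most of both, and the lines overlapped. Of 36 photoreceptor genes tested, 35 had a log2 change above 0 (median 1.39) and none had an unadjusted p under 0.05. With the covariate the medians took the other sign, at -0.32 for photoreceptor and -0.84 for pineal genes. The serotonin gene TPH2 is also on the pineal list, and its highest values in each line were in fish 28 and 39. Pituitary markers summed to 66.2, 56.7, 79.7 and 67.6 CPM in the treated line, against 81.6, 82.6, 83.9 and 77.1 CPM in the control line, growth hormone gh1 had no read in any female, and prolactin prl reached at most 2.91 CPM. The haemoglobin gene hbaa1 had 269, 521, 303 and 809.5 CPM in the treated line and 348, 429, 484 and 886 CPM in the control line. Oocyte markers summed to at most 15.8 CPM in the treated line and 20.2 CPM in the control line.

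**Figure D4:**
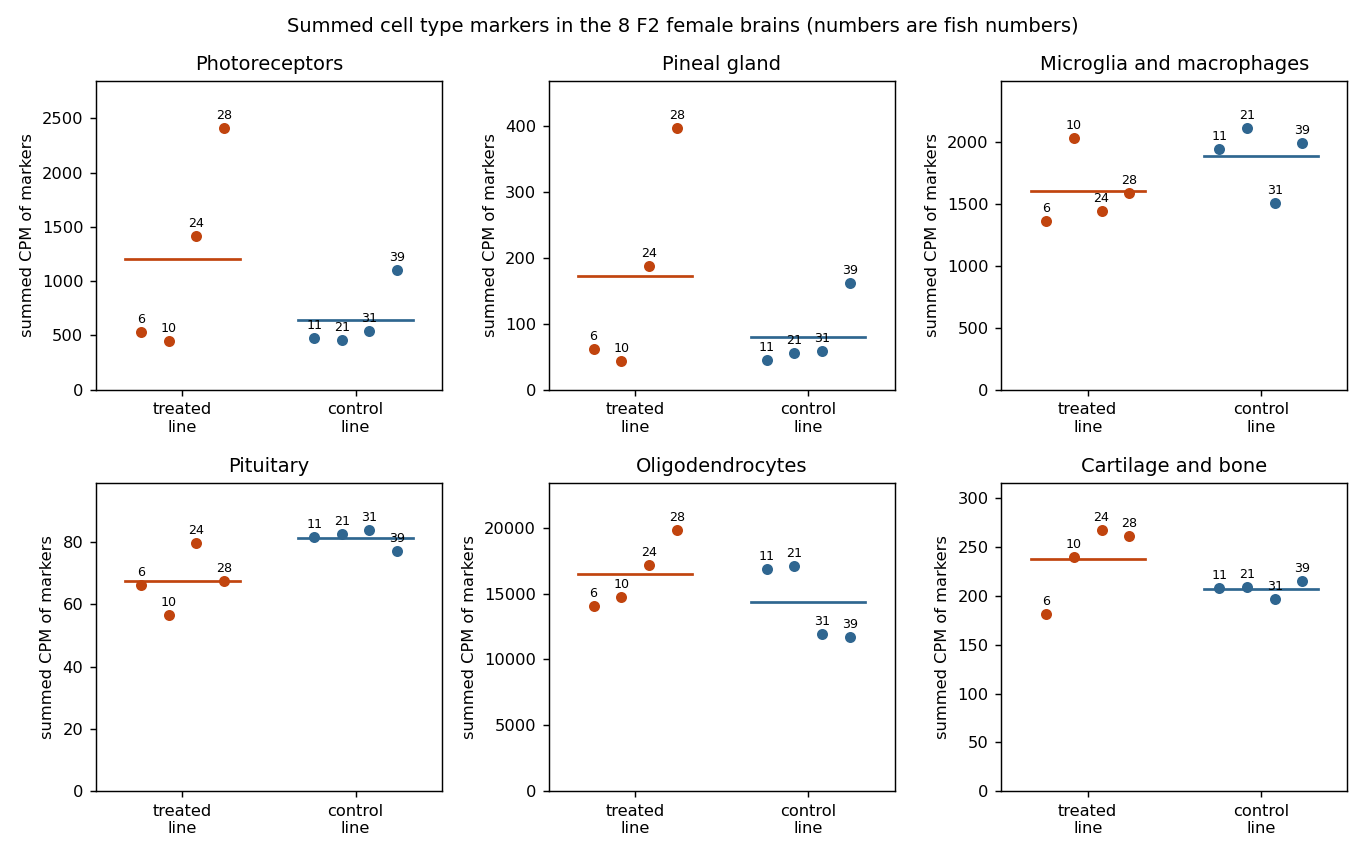
Summed CPM of 6 marker lists in each female (points with fish numbers, line at the mean), treated line left and control line right. Photoreceptor and pineal markers peak in the same fish, 28 and 24 of the treated line and 39 of the control line.

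The females were then set beside the exposed F0 males, with which they share no fish. In F0 males, 1141 of 18057 tested genes rose (6.32%) and 919 fell (5.09%) in exposed fish at an adjusted p under 0.05 (edgeR). Of the 1141 genes that rose in F0 males, all tested in F2 females, 767 (67.2%) were higher in treated-line females, against 48.4% of all genes, and the median log2 change was 0.07. Of the 901 tested genes that fell in F0 males, 669 (74.3%) were lower in treated-line females, against 51.6% of all genes, and the median log2 change was -0.26. At an unadjusted p under 0.05 in the same direction lay 78 of the 1141 (6.84%, against 2.25% of all genes) and 158 of the 901 (17.5%, against 3%), and 5 and 1 lay in the opposite direction. The lines did not overlap, in the same direction, for 42 of the 1141 (3.68%, against 1.47% of all genes) and for 100 of the 901 (11.1%, against 2.61%). The set of all genes was not matched to the F0 genes for expression level, and the part of level in these shares was not tested.

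In each female the median level of the genes that fell in F0 males, relative to the control-line mean, was -0.11, -0.31, -0.23 and -0.34 on the log2 scale in the treated line, against 0.06, -0.15, 0.15 and -0.02 in the control line. Treated-line fish 6 and control-line fish 21 overlapped, both with few genes detected. For genes that rose in F0 males it was -0.07, 0.19, 0.10 and 0.09 in the treated line, against 0.03, 0.11, -0.08 and -0.06 in the control line. Here control-line fish 21 lay above treated-line fish 24 and 28, and treated-line fish 6 lay below control-line fish 11, 21 and 39. Without fish 6, 24 and 21 the shares in the same direction were 86.3% of the genes that rose and 85.6% of those that fell. That fit was chosen after seeing the data and removes fish 6 and 21, which overlapped in these medians. The higher shares thus rest in part on removing them.

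The off-gene share moved with this pattern. It was 16.6 to 19.5% in exposed F0 males and 19.9 to 21.4% in control F0 males, and thus lower in the exposed or treated fish in both comparisons. With this share as a covariate in the fit of the females, 49.2% of the genes that rose in F0 males and 49.5% of those that fell had the same direction, and the medians were -0.01 and 0.01. The share did not overlap between the lines of females, so in these 8 fish the line and the share cannot be told apart.

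Of 52 genes named for exposed F0 males in an earlier account of these data, 50 were tested in F2 females. Of the 17 that fell in F0 males, 15 were lower in treated-line females and 8 of these had an unadjusted p under 0.05: GRIA3, CHAT, LPIN1, THRB, tefa, GAD2, mao and ppargc1b. Of all genes that fell in F0 males 74.3% were lower in treated-line females and 17.5% were so at such a p, against 51.6% and 3% of all genes. With the off-gene share as a covariate GAD2 had -0.02, THRB -0.09 and mao -0.18, while tefa had -0.80 and CHAT, as given above, a larger fall than without it. Of the 33 that rose, 20 were higher in treated-line females, none with an unadjusted p under 0.05, and the median log2 change was 0.01. Of all genes that rose in F0 males 67.2% were higher and 6.84% were so at such a p, against 48.4% and 2.25% of all genes. GRIA3 had a median of 52.9 CPM in exposed F0 males (lowest 46.8, highest 69.9), against 85.2 CPM in control F0 males (66.7 to 105), which overlapped, and the log2 change was -0.61 in F0 males beside -0.69 in F2 females, or -0.15 with the off-gene covariate. CHAT had 11.5 CPM (9.29 to 17.9) in exposed F0 males and 18.3 CPM (14.7 to 32.6) in control F0 males, a log2 change of -0.70 beside -1.07 in F2 females. LPIN1, a lipid phosphatase, had 8.83, 10.4, 6.07 and 9.69 CPM in treated-line females, against 22.4, 17.2, 12.4 and 15.4 CPM in control-line females, a log2 change of -0.95 beside -0.83 in F0 males. The mitochondrial fusion gene OPA1, with a log2 change of -0.77 in F0 males, had 36.8 to 58.1 CPM in treated-line females and 44.6 to 56.4 CPM in control-line females (log2 change -0.06, 95% interval -0.44 to 0.32). The neurofilament gene nefma, -0.74 in F0 males, was 0.28 in F2 females (95% interval -0.10 to 0.66). With the covariate these were 0.29 for OPA1 and 0.11 for nefma, and without fish 6, 24 and 21 OPA1 had -0.25.

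**Figure D5:**
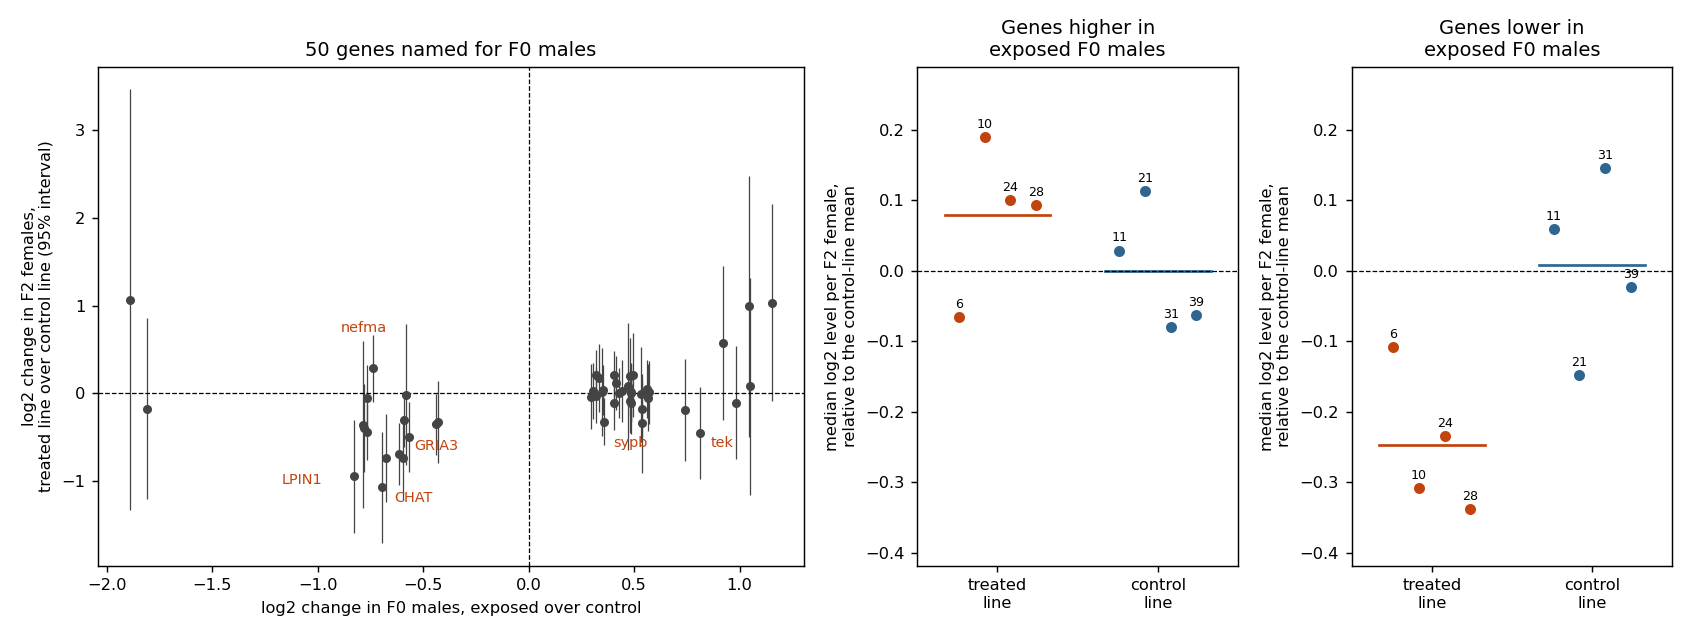
Left, log2 change in F2 females (treated line over control line, with the 95% interval) against log2 change in F0 males (exposed over control) for the 50 tested genes named for F0 males. Right, the median log2 level of the genes that rose and of the genes that fell in exposed F0 males, in each F2 female relative to the control-line mean, treated line left and control line right. Most genes that fell in F0 males lie below 0 in F2 females, while those that rose scatter around 0.

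The difference between the 2 effects was tested as an interaction over 20 fish, in which sex and generation cannot be told apart. It called 1 of 19603 genes (0.0051%), CASKIN2 (ENSDARG00000043818), a scaffold protein gene of the CASK family of interactors. In F0 males CASKIN2 had a median of 3.1 CPM (0.575 to 4.06) in exposed fish and 5.68 CPM (4.44 to 7.17) in controls, while F2 females had no read in the treated line and 1.16, 2.62, 1.41 and 2.48 CPM in the control line. Against a floor of 3 reads over the treated line its mean was at least 48-fold lower there in F2 females. The fitted difference of the log2 changes was -7.53 (SE 1.11, adjusted p = 0.0209), a size that depends on the zero counts, and all 4 treated-line females lay below all controls. The call was lost without treated-line fish 24 (adjusted p = 0.068), without control-line fish 39 (0.0658) and without fish 6, 24 and 21 (0.298), while the difference kept its size at -7.55, -7.35 and -7.39 in these fits. The 4 next genes by p were nlrp3l2, ENSDARG00000099006, si:dkey-121b10.8 and si:ch73-364h19.2, each at or near 0 in a whole line of females. The gene nlrp3l2 had 6.89, 3.88, 4.71 and 0 CPM in the treated line and no read in the control line (adjusted p = 0.0637 for the difference). It passed without fish 28 (adjusted p = 0.000206), a pass that rests on removing the only treated-line female without a read. The opposite case with many reads was sypb, lower in treated-line females and higher in exposed F0 males (log2 change 0.36), with a difference of -0.67 (SE 0.136, adjusted p = 0.155), chosen after its values were seen. Of 1986 genes at an unadjusted p under 0.05 (10.1%), no other passed.

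F2 males of the same lines gave the remaining comparison, with 2 fish a line. Of the 906 genes at an unadjusted p under 0.05 in females, 713 (78.7%) had the same direction in males, against 59.5% of the 17260 genes tested in both. The lines of F2 males differed by 0 called genes of 19463 in edgeR, 272 at an unadjusted p under 0.05 (1.4%). The test of the difference between the sexes called 0 of 19463 (0%), with 291 at an unadjusted p under 0.05 (1.5%), and DESeq2 also called 0. The lowest p belonged to a 5S ribosomal RNA ID (ENSDARG00000106940, 1 of 1947 IDs with this symbol, so its reads may be split among copies), to ENTPD2, HSPA8, TMEM63C and MTG2. The constitutive chaperone gene HSPA8 (1 of 2 IDs) had 61.6 to 79.1 CPM in treated-line females and 65.2 to 90.2 CPM in control-line females, and its log2 change was -0.13 in females (-0.01 without fish 6, 24 and 21) and -1.14 in males (difference 1.01, SE 0.253, adjusted p = 1). MTG2, a mitochondrial ribosome GTPase, had 22.6, 36.7, 55.9 and 18.4 CPM in treated-line females, against 16.7, 15.2, 15.8 and 18 CPM in control-line females (log2 change 1.02, and 1.69 with the covariate), and its change in males was -0.81 (difference 1.83, SE 0.483, adjusted p = 1). The extracellular nucleotidase gene ENTPD2 (1 of 2 IDs) differed by 4.64 and TMEM63C, a membrane channel gene, by -1.42. For gnrh3 the change was 1.23 in females and -0.27 in males, a difference of 1.51 (SE 0.493, adjusted p = 1).

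The spread among females of a line was the widest in tissue markers. The median within-line SD of log2 levels was 0.308 over the 9474 genes of at least 10 CPM. For list members of at least 10 CPM it was 2.53 for photoreceptors (12 of 36 tested), 1.13 for pineal gland (6 of 11) and 0.934 for muscle (9 of 32). It was 0.204 for neuron markers (25 of 25) and 0.211 for respiratory chain genes (82 of 86). The values for photoreceptors, pineal gland and muscle thus leave out many members of low level. The common biological coefficient of variation over all tested genes was 0.615. The first 3 principal components held 29.6, 23.6 and 21.4% of the variance and set apart treated-line fish 6, treated-line fish 24 and control-line fish 21 in turn, so none of them separated the lines.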

How the data were processed

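RNA of whole brains was sequenced and the authors deposited raw HTSeq counts per gene and run. Per the submitters' processing notes the build was GRCz11 (danRer11), and the tools named are STAR 2.7, cutadapt 2.1, DESeq2 1.24.0, HTSeq 0.11.2 and bcl2fastq. No source used here gives the annotation release or strand setting. HTSeq's summary lines were left out of all library sizes and used only for library measures. The 2 runs of a fish were summed (chi-square per degree of freedom 1.03 and 1.19 between runs of a female, 29.1 to 102 between females of a line), and each fish counted once. Females held 15.2 to 30.1 M gene reads.

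Symbols came from a table of gene names. Of 32520 IDs, 29201 had one, and 1369 of 1440 list entries were matched. An ID that shares its symbol with others may be any paralog. Counts were fitted with edgeR 4.0.16 (R 4.3.3, trimmed mean of M values scaling, filterByExpr with a minimum count of 10, quasi-likelihood test with Benjamini-Hochberg adjustment, threshold 0.05) on the 8 females. The difference from F2 males or F0 males was an interaction contrast. DESeq2 1.42.0 and limma 3.58.1 served as alternatives. The edgeR fits alone were also run on simulated counts, with a single fixed spread for all genes and no outlying fish. That run does not show how the fits perform on these data. Exact permutation tests (70 arrangements, Python 3.11.15, scipy 1.17.1) compared library measures. CPM are gene reads scaled to a common effective library size, computed here. A floor is 3 reads over a line. P-values measure the spread between fish, and intervals of counts cover counting error only. Members and lists were chosen with earlier results of these data known. Named genes were to be the called genes with the largest changes. With none called in a direction, the 5 of lowest p in each direction with at least 1 CPM are given, and for each interaction test the 5 of lowest p. Members of lists, genes absent in a line and F0 genes are named besides, chosen after their values were seen, and a few genes are not reported here. The alternatives were other scaling, tools and filters, leaving out each female, fits over 12 or 24 fish, first runs only, and the share of off-gene reads as covariate.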

Additional observations from a re-analysis of the deposited data

Results flagged for a closer look

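A single fish far from the other 3 of its line was found in 17 of 274 groups of 4 values examined (Dixon's test at 95%), and chance alone flags about 1 group in 20. In treated-line fish 6, choroid plexus and ependyma markers summed to 268 CPM against 329 to 338 CPM in the other treated-line females. Fish 6 also had 74.9 CPM of NUP205, 67.2 CPM of THRB, 9.43 CPM of the glycolytic gene ENO3, 553 CPM of the ribosomal gene RPL13 and 177 CPM of the peroxiredoxin gene prdx5. Treated-line fish 24 had 344 CPM of GAD2 and 102 CPM of DGAT1, and treated-line fish 28 had 45.2 CPM of the small nuclear RNA gene rn7sk, where the others had 281 to 309 CPM.

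In the control line, photoreceptor markers summed to 1101 CPM and pineal markers to 162 CPM in fish 39. Fish 39 also had 76.5 CPM of UCP1. Control-line fish 21 had 32.9 CPM of TET2, 10.2 CPM of COL12A1 and 53.2 CPM of the endothelial receptor gene tek. Control-line fish 11 had 229.7 CPM of SDHB and 178 CPM of the sterol sensor gene insig1.

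CASKIN2 was flagged because the line effect in F2 females differed from the exposure effect in F0 males, by -7.53 on the log2 scale (edgeR interaction test, adjusted p = 0.0209). All 4 treated-line females had no read.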

How the results depend on the processing

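Between the lines of females, DESeq2 called 22 genes where edgeR called 0, and edgeR called 1 without a filter on low counts, 3 with all 24 fish in the fit, and 0 to 2 when any female was left out. For the difference from F2 males, 1 gene was called without a filter and 0 to 0 when any female was left out. For the difference from F0 males, where 1 was called, DESeq2 called 70 (44 higher and 26 lower), edgeR without a filter 2, and 0 to 7 were called when any female was left out. Alternatives chosen after seeing the data gave 5 genes without treated-line fish 6 and 24 and control-line fish 21. The shares of F0 genes with the same direction (67.2% of those that rose, 74.3% of those that fell) were also recomputed after seeing the data. They were 86.3 and 85.6% without those 3 fish, 84.7 and 86.3% with sample quality weights, 49.2 and 49.5% with the off-gene share of reads as a covariate, and 55.7 to 78.7% and 67.6 to 80.5% when any female was left out. The share of those that rose was 70.6% under median-ratio scaling and in DESeq2. With the covariate, 8 log2 changes were counted as reversed in sign among the 76 changes or differences given next. They were DNAJB11 0.11 (SE 0.359), TPH2 -0.36 (SE 0.604), npffl -1.46 (SE 1.03), EED -0.15 (SE 0.468), BSN 0.14 (SE 0.291), SOX9 -0.14 (SE 0.598), AQP1 -0.014 (SE 0.409) and krt94 -0.040 (SE 0.459). All but npffl are smaller than their SE, and none had an unadjusted p under 0.05 in that edgeR fit. The fit thus does not resolve these signs. The 8 are not a full count over all genes, as OPA1 also went from -0.06 to 0.29. Over 76 changes or differences of single genes and 1438 recomputed values, 1398 kept their direction and side of the threshold, 29 passed it newly (17 of them in DESeq2) and 3 lost it. The cause of these moves was not tested. Only the CASKIN2 difference from F0 males had passed in the main fits. Keeping the side was thus nearly fixed in advance and does not measure stability. A value counted as kept could still shrink, as GAD2 did from -0.45 to -0.02 with the covariate. No paired analysis was possible because the female groups share no fish numbers. Depth limits genes of few reads: a gene without a read in a line may lie below 3 reads over that line.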
